A study of Bos taurus with 90 samples.

Results

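The duodenum and jejunum epithelium of dairy cows fed a corn stover diet were compared in 12 of the 90 small RNA libraries of the series, 6 from each tissue. The comparison covered the 331 miRNAs listed in both tissues, out of 344 listed in at least one of them and 388 listed in any of the 5 tissues studied. The cows were mid-lactation Chinese Holsteins, and corn stover was one of 3 forage diets, beside rice straw and alfalfa hay, with 6 cows on each. Each tissue was taken from every cow, and the libraries of a tissue and diet are numbered from 1 to 6, but the labels do not say that a number names a cow. The RNA came from frozen pieces of tissue that were ground whole, so each library holds every cell type of its piece. Levels are given as CPM, the reads of a miRNA divided by those mapped to all annotated miRNAs and scaled to the same total in every library, so a rise of one abundant miRNA lowers the CPM of the others. Mapped reads ranged from 4925942 to 9994617 in the duodenum and from 6052826 to 9838915 in the jejunum, and 3 reads were worth 0.3 to 0.609 CPM.

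miRNAs are short RNAs that guide a silencing complex to messenger RNAs with a matching site, which lowers the translation and stability of those messages. Each is cut from one or the other arm of a hairpin, and hairpins that lie close together in the genome are often made from a single long transcript. The duodenum is the first stretch of the small intestine, which receives bile and pancreatic juice, and the jejunum is the long absorptive stretch that follows it. Their lining is a sheet of enterocytes, goblet cells and hormone-secreting cells over a stroma of fibroblasts, vessels, immune cells and smooth muscle, and several miRNAs are known to be concentrated in one of these cell types. No mature miRNA sequence was at hand in the sources used here, so none is printed.

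The markers of the label were present in all 12 libraries, with bta-miR-192 at 119672 CPM or more and bta-miR-141 of the epithelial miR-200 family at 2566 CPM or more. In this series bta-miR-192 was abundant in the liver too. bta-miR-143, which is concentrated in smooth muscle and fibroblasts, was also at 104281 CPM or more in every library, and the liver marker bta-miR-122 was listed in neither tissue. Jejunum libraries 1, 2 and 6 stood apart from jejunum libraries 3, 4 and 5. Of the 331 miRNAs, 14 were higher and 90 lower in all 3 of the former than in all 3 of the latter, 31.4% together. This split was chosen after seeing the data, so the count describes the split and does not test it. Some miRNAs would separate along any split of 3 against 3, and their share was not computed. Jejunum libraries 1, 2 and 6 had 220.6 to 440.3 CPM outside the listed miRNAs, against 42.4 to 72.6 in the other 33 duodenum and jejunum libraries of the 3 diets. All 6 corn stover jejunum libraries lay beyond all 30 other duodenum and jejunum libraries in 13 miRNAs, 3.93% of those tested, of which 5 were above and 8 below. No batch, lane or date is labelled, so the preparation of these 6 libraries and the combination of tissue and diet cannot be told apart. Some of the 13 also varied widely within a tissue and diet elsewhere in the series. bta-miR-1271 ran from 15.85 to 759 CPM in the rumen on alfalfa hay, but from 19.07 to 26.95 CPM there on corn stover. bta-miR-423-3p ran from 43.19 to 1659 CPM in the mammary gland on rice straw, and from 630.6 to 1141 CPM there on corn stover. The source of this spread was not tested.

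The first question was which miRNAs differ between the 2 neighbouring stretches of the gut under this diet. Between jejunum and duodenum, 118 of 331 miRNAs (35.6%) passed an adjusted p of 0.05 in limma. In the jejunum 57 were higher (17.2%) and 61 were lower (18.4%), and the median difference over all 331 was -0.07 on the log2(CPM + 1) scale. Of the 118, 33 differed by at least 1 on that scale, 15 upward and 18 downward, and 98 moved the same way in all 6 same-numbered pairs of libraries. The 98 were counted among called miRNAs only, and same numbers were not shown to be pairs, so this count is no test of the calls. The 6 jejunum and 6 duodenum values did not overlap at all for 54 miRNAs (16.3%), 27 in each direction. With jejunum libraries 1, 2 and 6 left out, a choice made after seeing the data, 69 passed (20.8%), 38 higher and 31 lower, of which 63 had passed with the same sign among all 12 libraries. The split between directions rested on the scaling. The share of higher calls was 48.3% as deposited, 38.6% after upper-quartile scaling, 51.1% after trimmed-mean scaling, 73.1% when bta-miR-143 and bta-miR-145 were taken out of the total, and 27.3% when bta-miR-192 was. These scalings moved the median of all miRNAs to between -0.22 and 0.11, and no miRNA among the 118 changed its direction under any of them. Each scaling shifts all differences by nearly the same amount, so a called difference could hardly change direction. The unchanged directions are therefore no test of the calls.

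**Figure D1:**
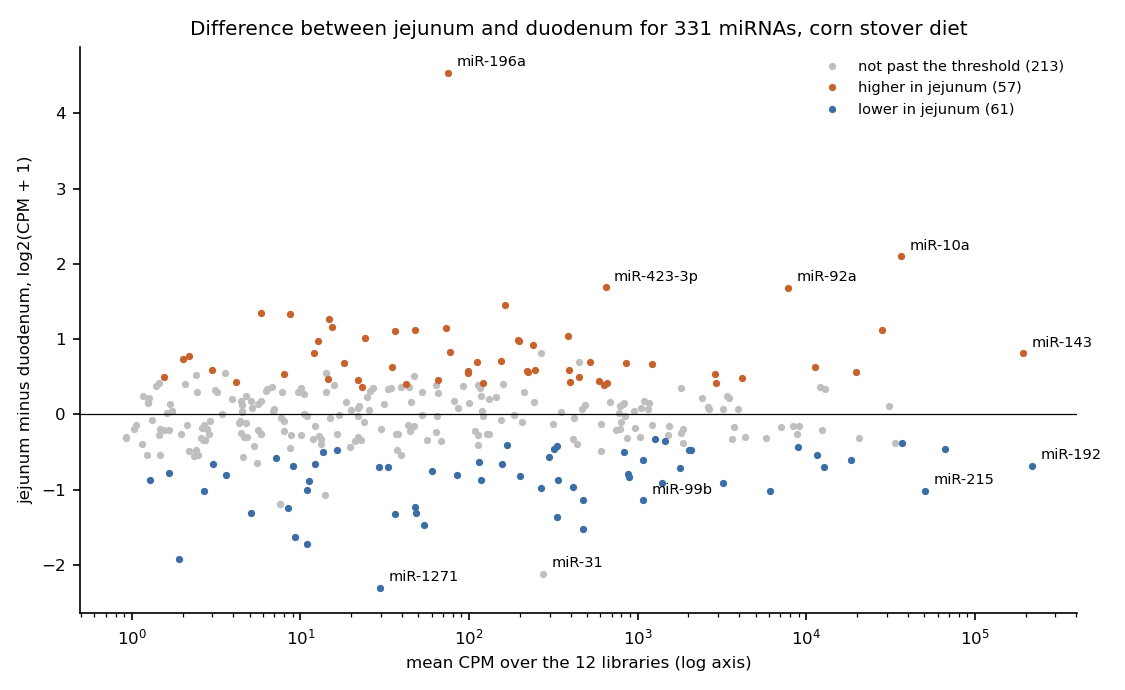
Each point is 1 of 331 miRNAs, with its mean CPM over the 12 corn stover libraries on a log axis and its jejunum minus duodenum difference in log2(CPM + 1) on the other axis. The 57 higher and 61 lower miRNAs are spread over the whole range of abundance, with bta-miR-196a highest at 4.54 and bta-miR-1271 lowest among those called at -2.30.

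Of 3 miRNAs of the absorptive epithelium 2 were lower in the jejunum, against 18.4% of all miRNAs, and none was higher. bta-miR-192 and bta-miR-215 are close relatives known from the gut lining, and each is made together with a copy of bta-miR-194. In the liver on corn stover bta-miR-192 was at 114100 to 165400 CPM and bta-miR-194 at 6244 to 8651 CPM, so neither is particular to the gut. bta-miR-215 was at 552.5 to 928.6 CPM there. bta-miR-192, first by mean CPM over the 12 libraries but behind bta-miR-143 in the jejunum mean, had 231480, 274115 and 287757 CPM as lowest, median and highest values in the duodenum and 119672, 169784 and 218767 CPM in the jejunum. Every jejunum library was below every duodenum library, and bta-miR-192 fell by 0.68 ± 0.14 (SE, 6 libraries in each tissue) on the log2 scale, adjusted p = 0.00224. bta-miR-215, which may share reads with bta-miR-192, ranged from 40351 to 83168 CPM in the duodenum and from 12626 to 66978 CPM in the jejunum, with a difference of -1.01 ± 0.33 and adjusted p = 0.0257. Its groups overlapped, and it missed the threshold after trimmed-mean scaling (adjusted p = 0.0554) and without bta-miR-143 and bta-miR-145 in the total (adjusted p = 0.0515). bta-miR-194, at 11150 to 14118 and 8584 to 19586 CPM, did not pass (-0.21, 95% interval -0.62 to 0.20), although without jejunum libraries 1, 2 and 6 it did (-0.47, adjusted p = 0.0165). Together the 3 made up 34.5% ± 2.64 (SD, n = 6) of mapped reads in the duodenum and 21.7% ± 5.37 in the jejunum, a difference of -12.8 percentage points with p = 0.00433 in an exact two-sided permutation test. Without jejunum libraries 1, 2 and 6, chosen after seeing the data, it was -14.62 percentage points (p = 0.0119, exact, the smallest that 6 against 3 allow). Because of that choice the latter p describes the remaining libraries and is no further test. Most of this sum is bta-miR-192, which alone took 26.7% ± 2.0 and 16.9% ± 3.4 of mapped reads. In such whole-tissue RNA, fewer cells of a type and less RNA per cell cannot be told apart.

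The miR-200 family, which keeps cells epithelial by repressing the factors ZEB1 and ZEB2, went the same way. Of its 5 members, 4 were lower in the jejunum, against 18.4% of all miRNAs, and none was higher. The median difference was -0.80 against -0.07 over all miRNAs. Without jejunum libraries 1, 2 and 6 again 4 were lower, against 9.37% of all. bta-miR-141 had 6492, 7788 and 10176 CPM as lowest, median and highest values in the duodenum and 2566, 3730 and 5610 CPM in the jejunum (-1.02 ± 0.19, adjusted p = 0.00104). bta-miR-200c had 882 to 1395 CPM and 535 to 864 CPM (-0.80 ± 0.15, adjusted p = 0.00102). For both the tissues did not overlap, and bta-miR-200a differed by -0.72 (adjusted p = 0.0163), which missed the threshold without bta-miR-143 and bta-miR-145 in the total (adjusted p = 0.0606). The member that did not pass was bta-miR-429, at 813 to 1385 CPM in the duodenum and 702 to 1759 CPM in the jejunum, a difference of 0.15 with a 95% interval of -0.29 to 0.59.

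The miR-183 cluster and 2 miRNAs of hormone-secreting cells were mixed. The cluster is known from sensory cells, and bta-miR-375 and bta-miR-7 from endocrine cells. bta-miR-96 had 8.38, 15.4 and 17.9 CPM in the duodenum and 3.10, 3.43 and 5.53 CPM in the jejunum, with no overlap (-1.63 ± 0.20, adjusted p = 4.84e-05). bta-miR-7 had 50.5, 82.5 and 114 CPM in the duodenum and 18.2, 25.7 and 52.0 CPM in the jejunum (-1.47 ± 0.25, adjusted p = 0.000671), where only jejunum library 3, at 52.0 CPM, reached into the duodenum range. bta-miR-183 passed at -0.81 (adjusted p = 0.0143) but neither without jejunum libraries 1, 2 and 6 (adjusted p = 0.115) nor without bta-miR-143 and bta-miR-145 in the total (adjusted p = 0.067). bta-miR-182 (0.14, adjusted p = 0.477) and bta-miR-375 (-0.31, adjusted p = 0.201) did not pass. So 3 of 5 members were lower, against 18.4% of all miRNAs, and none was higher.

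The abundant smooth muscle and stromal miRNA was higher in the jejunum. bta-miR-143 had 104281, 147228 and 155563 CPM as lowest, median and highest values in the duodenum and 183108, 255356 and 294801 CPM in the jejunum. All jejunum libraries exceeded all duodenum libraries (0.81 ± 0.14, adjusted p = 0.00072). bta-miR-145, which is made from the same transcript as bta-miR-143 and is known from the same cells, had 1342 to 2425 CPM and 1345 to 2261 CPM, with a difference of -0.20 (95% interval -0.56 to 0.17, adjusted p = 0.403). Of the 7 members of the list 3 were higher, against 17.2% of all miRNAs, and none was lower, with a median of 0.35. The fibroblast miRNA bta-miR-199a-3p was higher by 0.49 (adjusted p = 0.0143) and bta-miR-199b differed by 0.17 (adjusted p = 0.362). bta-miR-199a-3p and bta-miR-199c, the third member that passed, did not pass when bta-miR-192 was taken out of the total (adjusted p = 0.0567 and 0.137). The summed share of the list was 14.7% ± 2.03 in the duodenum and 25.5% ± 4.02 in the jejunum, a difference of 10.8 percentage points with p = 0.00216, the smallest that 6 against 6 allow in the exact two-sided permutation test. Without jejunum libraries 1, 2 and 6, chosen after seeing the data, it was 13.05 percentage points (p = 0.0119, exact, again the smallest possible). Here too the latter p is no further test. Nearly all of that sum is bta-miR-143, which alone took 14.0% ± 2.0 and 24.6% ± 3.9 of mapped reads. The part that the amount of muscle or stroma in the tissue pieces had in these differences was not tested.

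**Figure D2:**
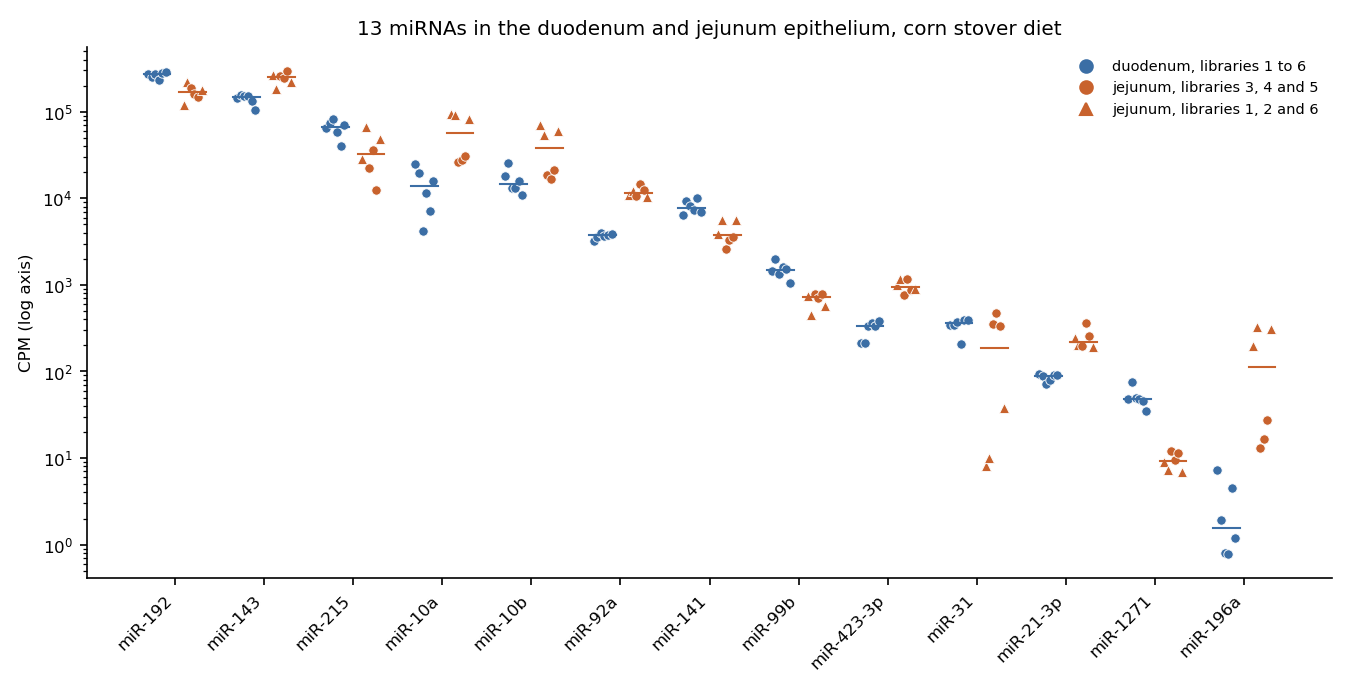
Each point is 1 corn stover library, with CPM on a log axis, blue for duodenum and orange for jejunum, triangles for jejunum libraries 1, 2 and 6, and a bar at the median of each group of 6. bta-miR-92a, bta-miR-1271, bta-miR-423-3p and bta-miR-21-3p separate all 6 jejunum libraries from all 6 duodenum libraries, whereas bta-miR-10a, bta-miR-10b, bta-miR-196a and bta-miR-31 split the jejunum into 2 sets of 3.

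Markers of the other cell types that such a piece can hold were examined as whole lists. Of 4 striated muscle miRNAs 1 was higher and 1 lower, against 17.2% and 18.4% of all miRNAs. These 2 are co-transcribed in muscle and neighbour each other in the genome. bta-miR-133a went from 136 to 291 CPM in the duodenum to 220 to 374 CPM in the jejunum (0.58, adjusted p = 0.0271), and bta-miR-1 from 8.38 to 19.8 CPM to 5.61 to 9.15 CPM (-0.88, adjusted p = 0.00434). bta-miR-133a did not pass without jejunum libraries 1, 2 and 6 (adjusted p = 0.155) or without bta-miR-192 in the total (adjusted p = 0.0838). The summed list was only 0.0158% to 0.0329% of reads in the duodenum and 0.0243% to 0.04001% in the jejunum. Of the 2 arms of the endothelial miR-126, bta-miR-126-5p was lower (-0.70, adjusted p = 0.0216) and bta-miR-126-3p did not pass (-0.33, adjusted p = 0.15). Neither passed without jejunum libraries 1, 2 and 6 (adjusted p = 0.272 and 0.957), and bta-miR-126-5p did not without bta-miR-143 and bta-miR-145 in the total (adjusted p = 0.115). None of the 3 red blood cell miRNAs passed, but without jejunum libraries 1, 2 and 6 bta-miR-486 did (1.25, adjusted p = 0.0234). Their sum ran from 0.0315% to 0.0605% in the duodenum and from 0.0280% to 0.203% in the jejunum, where library 4 stood out with 559 CPM of bta-miR-451 against 54.0 to 160 CPM in the other 5.

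Of 8 immune cell miRNAs 1 was higher and 3 were lower, against 17.2% and 18.4% of all miRNAs. bta-miR-223, which is made in neutrophils and other myeloid cells, had 184, 264 and 276 CPM as lowest, median and highest values in the duodenum and 329, 482 and 792 CPM in the jejunum. The groups did not overlap (1.04 ± 0.19, adjusted p = 0.000921), and the difference stayed past the threshold without jejunum libraries 1, 2 and 6 (0.90, adjusted p = 0.00931). bta-miR-146a and bta-miR-146b, which damp NF-kappaB signalling, were lower. bta-miR-146a had 3581 to 4773 CPM in the duodenum and 1163 to 4109 CPM in the jejunum (-0.91, adjusted p = 0.00902), and without the 3 libraries it did not pass (-0.41, adjusted p = 0.0979). bta-miR-146b had 459 to 1004 CPM and 146 to 557 CPM (-1.52 ± 0.29, adjusted p = 0.00121) and passed in both. The third that was lower was bta-miR-342 (-0.32, adjusted p = 0.0352), known from lymphocytes, which did not pass without the 3 libraries (adjusted p = 0.344) or without bta-miR-143 and bta-miR-145 in the total (adjusted p = 0.465). bta-miR-223 and bta-miR-342 are named after their values were seen. The most abundant of the list, bta-miR-142-5p, made in all blood-forming lineages, had 15025 to 33547 CPM and 14788 to 23821 CPM and did not pass (-0.32, adjusted p = 0.186). The list as a whole took 2.34% to 4.91% of reads in the duodenum and 2.09% to 3.35% in the jejunum, so the ranges overlapped. Of 13 neural miRNAs 1 was lower, against 18.4% of all miRNAs. It was bta-miR-153, at 36.4 to 93.2 CPM in the duodenum and 23.8 to 31.5 CPM in the jejunum (-1.31 ± 0.20, adjusted p = 0.000237). Within this list bta-miR-124a and bta-miR-124b had identical values in every library, as did bta-miR-129 and bta-miR-129-5p, so the list holds fewer independent members than names.

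**Figure D3:**
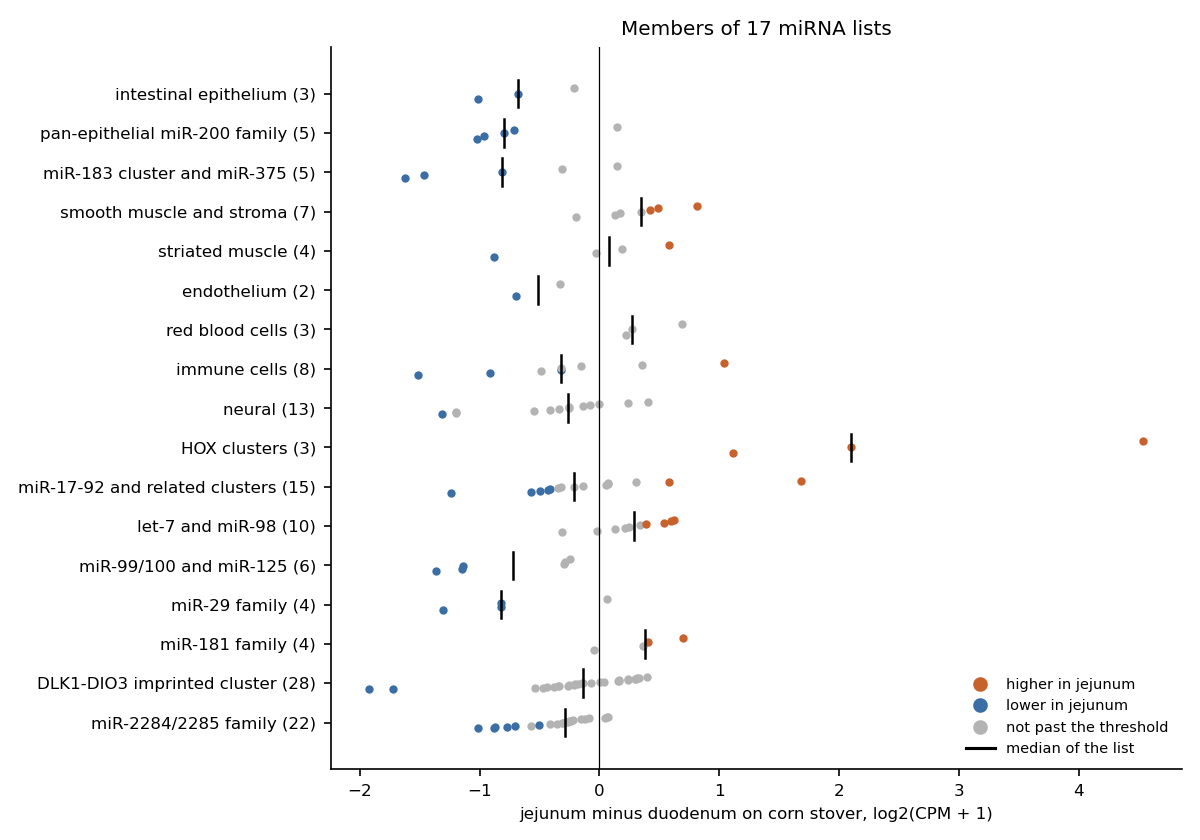
Each point is a miRNA placed by its jejunum minus duodenum difference on corn stover in log2(CPM + 1), in rows for 17 lists with the number of members in brackets, colored where it passed an adjusted p of 0.05, with a bar at the list median. The 3 HOX cluster miRNAs lie at 1.12 to 4.54, while 4 of 5 miR-200 family members lie between -0.72 and -1.02.

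Of the miRNAs that lie in the HOX gene clusters, the 3 listed in both tissues were all higher in the jejunum with all libraries, among them the largest rise. HOX genes mark position along the body axis, and bta-miR-10a, bta-miR-10b and bta-miR-196a are transcribed from within these clusters and repress some of the HOX genes around them. bta-miR-196a had 0.776, 1.55 and 7.20 CPM as lowest, median and highest values in the duodenum and 13.2, 112 and 324 CPM in the jejunum (4.54 ± 0.80, adjusted p = 0.00072). The tissues did not overlap, but the jejunum fell into 2 sets, with 197, 324 and 310 CPM in libraries 1, 2 and 6 and 13.2, 16.7 and 27.7 CPM in libraries 3, 4 and 5. Without the former the difference was 2.63 (adjusted p = 0.00347). bta-miR-10a had 4202, 13722 and 24774 CPM in the duodenum and 26635, 56927 and 95217 CPM in the jejunum, again without overlap (2.10 ± 0.46, adjusted p = 0.00309). Libraries 1, 2 and 6 were at 83090 to 95217 CPM and the other 3 at 26635 to 30764 CPM, and without the former it did not pass (1.27, adjusted p = 0.073). bta-miR-10b had 11038 to 25804 CPM and 16763 to 69678 CPM (1.12 ± 0.36, adjusted p = 0.0272), and dropped to 0.27 (adjusted p = 0.444) without these libraries. All 3 members were thus higher with the 6 jejunum libraries, against 17.2% of all miRNAs. Without libraries 1, 2 and 6 it was 1 of 3, against 11.5% of all. The calls of bta-miR-10b also depended on the scaling, with adjusted p values from 0.01 to 0.0725. The same 3 libraries were low in bta-miR-31, an injury-induced epithelial miRNA, at 8.13, 10.1 and 37.7 CPM against 337 to 478 CPM in jejunum libraries 3, 4 and 5 and 210 to 393 CPM in the duodenum. Its difference between the tissues did not pass (-2.11, adjusted p = 0.0871) and was 0.19 without them. Libraries 1, 2 and 6 are also the ones with the higher CPM outside the listed miRNAs, and the part of that in these results was not tested.

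The miR-17-92 cluster and its relatives, known for driving proliferation, held calls in each direction. Of 15 members 2 were higher and 5 lower, against 17.2% and 18.4% of all miRNAs, with a median of -0.21. The counts were 1 higher and 3 lower without jejunum libraries 1, 2 and 6. bta-miR-92a had 3197, 3736 and 3950 CPM as lowest, median and highest values in the duodenum and 10300, 11571 and 14544 CPM in the jejunum. The 2 ranges lay far apart, and the difference of 1.68 ± 0.10 had the smallest adjusted p of all miRNAs (5.29e-08), and it was 1.77 without jejunum libraries 1, 2 and 6. bta-miR-19b from the same cluster went the other way, from 883 to 1085 CPM in the duodenum to 578 to 758 CPM in the jejunum, without overlap (-0.49 ± 0.10, adjusted p = 0.00181), although not past the threshold without bta-miR-143 and bta-miR-145 in the total (adjusted p = 0.0662). bta-miR-106a, from a related cluster on the X chromosome, was lower too (-1.24, with 8.14 to 15.1 CPM and 2.37 to 7.12 CPM, adjusted p = 0.00106). bta-miR-25 and bta-miR-93, of a further related cluster, had differences of 0.07 and 0.07 (adjusted p = 0.628 and 0.575). The other called members, named after their values were seen, were bta-miR-92b (0.58) upward and bta-miR-17-5p (-0.43), bta-miR-19a (-0.41) and bta-miR-20a (-0.57) downward, of which bta-miR-20a passed without jejunum libraries 1, 2 and 6. The last 3 did not pass without bta-miR-143 and bta-miR-145 in the total (adjusted p = 0.0794 to 0.257).

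The let-7 family, which promotes differentiation and represses LIN28 and HMGA2, was higher in part. Of 10 members 4 were higher and none was lower with all libraries, against 17.2% and 18.4% of all miRNAs. Without jejunum libraries 1, 2 and 6, 7 were higher, against 11.5% of all. bta-let-7a-5p had 7927, 8617 and 9609 CPM in the duodenum and 10940, 14232 and 16108 CPM in the jejunum, with no overlap (0.63 ± 0.11, adjusted p = 0.000921). bta-let-7f, the most abundant, had 8210 to 14036 CPM and 12037 to 16800 CPM and did not pass (0.34, adjusted p = 0.0708), but passed without the 3 libraries (0.53, adjusted p = 0.027). The other 3 that were higher, named after their values were seen, were bta-let-7b, bta-let-7d and bta-let-7e (0.54, 0.39 and 0.60), of which bta-let-7d did not pass without bta-miR-192 in the total (adjusted p = 0.185).

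The miR-99/100 and miR-125 families are hosted by the same transcripts as some let-7 genes and are known to restrain mTOR and growth signalling. They were lower in 3 of 6 members, against 18.4% of all miRNAs, and higher in none, with a median of -0.72. bta-miR-99b had 1042, 1487 and 2001 CPM in the duodenum and 444, 725 and 792 CPM in the jejunum (-1.14 ± 0.17, adjusted p = 0.000216). bta-miR-100 had 478 to 872 CPM and 202 to 396 CPM (-1.14, adjusted p = 0.000493). bta-miR-99a-5p had 349 to 553 CPM and 88.5 to 279 CPM (-1.36, adjusted p = 0.00106). None of the 3 overlapped between the tissues, and all 3 passed without jejunum libraries 1, 2 and 6. bta-miR-125a (-0.24, adjusted p = 0.251) and bta-miR-125b (-0.30, adjusted p = 0.201) did not pass.

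The miR-29 family, which represses collagens and other matrix genes, was lower in 3 of 4 members, against 18.4% of all miRNAs. bta-miR-29b had 209 to 292 CPM in the duodenum and 105 to 182 CPM in the jejunum, without overlap (-0.82 ± 0.15, adjusted p = 0.00102). bta-miR-29c differed by -0.83 (adjusted p = 0.0175), but did not pass without jejunum libraries 1, 2 and 6 (adjusted p = 0.271) or without bta-miR-143 and bta-miR-145 in the total (adjusted p = 0.0778), while bta-miR-29d, at 5.503 to 9.695 CPM and 1.49 to 3.69 CPM, differed by -1.31 (adjusted p = 0.000136). bta-miR-29a, the most abundant member at 2782 to 4445 CPM and 3397 to 5137 CPM, differed by 0.07 with a 95% interval of -0.25 to 0.38.

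Of 5 miRNAs linked to stress, hypoxia and injury 1 was higher and 1 lower, near the 17.2% and 18.4% of all miRNAs. These were the 2 arms of one hairpin. bta-miR-21-5p, among the 10 most abundant miRNAs of these libraries, had 33402, 42101 and 46757 CPM as lowest, median and highest values in the duodenum and 27223, 31917 and 39093 CPM in the jejunum (-0.39 ± 0.12, adjusted p = 0.0205). It did not pass without jejunum libraries 1, 2 and 6 (adjusted p = 0.116) or without bta-miR-143 and bta-miR-145 in the total (adjusted p = 0.275). Its partner arm bta-miR-21-3p had 71.5, 89.8 and 93.6 CPM in the duodenum and 190, 221 and 364 CPM in the jejunum, without overlap (1.46 ± 0.16, adjusted p = 1.67e-05). The hypoxia-induced bta-miR-210, at 29.7 to 47.9 CPM and 34.9 to 74.9 CPM, did not pass (0.51, adjusted p = 0.0571).

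Other large differences were in miRNAs not described above, of which bta-miR-379 and bta-miR-301b belong to lists given by their counts below. bta-miR-1271, a relative of bta-miR-96 with the same seed, had 34.9, 48.0 and 75.1 CPM as lowest, median and highest values in the duodenum and 6.98, 9.24 and 11.9 CPM in the jejunum (-2.30 ± 0.19, adjusted p = 9.55e-07). The lowest duodenum library was above the highest jejunum library, and the mean was 5.40-fold higher in the duodenum. bta-miR-423-3p had 213, 335 and 384 CPM in the duodenum and 773, 953 and 1183 CPM in the jejunum (1.69 ± 0.17, adjusted p = 1.16e-05). bta-miR-345-3p had 20.1 to 28.5 CPM and 44.3 to 58.0 CPM (1.11 ± 0.13, adjusted p = 3.43e-05), bta-miR-1307 had 32.9 to 54.0 CPM and 75.3 to 127 CPM (1.15 ± 0.16, adjusted p = 0.000136), and bta-miR-504, known to repress p53, had 3.30 to 6.01 CPM and 8.20 to 17.3 CPM (1.33 ± 0.19, adjusted p = 0.000136). All 3 were apart in every library and passed without jejunum libraries 1, 2 and 6. bta-miR-211, bta-miR-2887 and bta-miR-2487 were higher by 1.12, 1.26 and 1.16 with overlapping groups, and none of them passed without these libraries. Among the 12 largest falls not yet described were bta-miR-379 of the imprinted DLK1-DIO3 cluster (7.18 to 31.8 CPM and 1.83 to 7.74 CPM, -1.72, adjusted p = 0.000947), bta-miR-301b (-1.32, adjusted p = 0.00496) and bta-miR-425-3p (46.6 to 93.8 CPM and 20.6 to 33.2 CPM, -1.24, adjusted p = 0.000136). In all, 51 of the 136 miRNAs in no list were called (37.5%, near the 35.6% of all miRNAs), 36 of them higher and 15 lower.

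The remaining lists are described by their counts, to be set against 17.2% higher and 18.4% lower among all 331 miRNAs. Without jejunum libraries 1, 2 and 6 these shares were 11.5% and 9.37%. Of the 28 miRNAs of the DLK1-DIO3 cluster 2 were lower, bta-miR-379 and bta-miR-409a, the latter at 0.855 to 5.48 CPM in the duodenum and no more than 0.309 CPM in the jejunum, with none higher and a median of -0.14. Of 22 members of the bovine miR-2284 and miR-2285 families 6 were lower and none higher, against 18.4% lower among all miRNAs. Without jejunum libraries 1, 2 and 6, 2 were lower, against 9.37% of all. The miR-30 family had 2 of 7 lower, the miR-23, miR-27 and miR-24 clusters 2 of 7, the miR-26 family 1 of 2, the miR-148 and miR-152 family 1 of 3 and the miR-424, miR-450 and miR-542 cluster 1 of 6, all lower. These counts were 0 without jejunum libraries 1, 2 and 6, except 1 in the miR-23, miR-27 and miR-24 clusters. Fewer libraries lower the calls of all miRNAs too, as the 9.37% shows. Without bta-miR-143 and bta-miR-145 in the total, both miR-30 members (adjusted p = 0.13 and 0.294), bta-miR-23b-3p (0.285), bta-miR-152 (0.0978) and bta-miR-450a (0.108) also missed the threshold. The called member that passed in both was bta-miR-24-3p (1219 to 2113 CPM and 704 to 1368 CPM, -0.91, adjusted p = 0.00296). bta-miR-26a, which restrains proliferation, had 58766, 79999 and 86513 CPM in the duodenum and 38174, 60451 and 68480 CPM in the jejunum (-0.46, adjusted p = 0.0292), and did not pass without the 3 libraries (-0.26, adjusted p = 0.181) or without bta-miR-143 and bta-miR-145 in the total (adjusted p = 0.236). The miR-15 and miR-16 family had 1 member in each direction, bta-miR-16a lower (-0.47) and bta-miR-497 higher (0.42), which missed the threshold without bta-miR-143 and bta-miR-145 (adjusted p = 0.113) and without bta-miR-192 (adjusted p = 0.167) in the total, respectively. The miR-181 family had 2 of 4 higher, among them bta-miR-181b (331 to 564 CPM and 516 to 850 CPM, 0.70, adjusted p = 0.00368), miR-221 and miR-222 had 1 of 2 higher, and of 3 miRNAs, miR-132, miR-212 and miR-184, bta-miR-132 was higher (0.71, adjusted p = 0.0096) and bta-miR-184 lower (-1.01, adjusted p = 0.0449, and 0.367 without jejunum libraries 1, 2 and 6). bta-miR-181d and bta-miR-222, counted here, passed neither without jejunum libraries 1, 2 and 6 (adjusted p = 0.0502 and 0.084) nor without bta-miR-192 in the total (adjusted p = 0.114 and 0.119). bta-miR-184 also missed the threshold without bta-miR-143 and bta-miR-145 in the total (adjusted p = 0.104). The miR-130 and miR-301 family had 1 of 5 higher and 2 lower, and without jejunum libraries 1, 2 and 6 none higher and 1 lower. No member passed of 3 in the miR-378 family or of 4 in the miR-34 and miR-449 family. Of the 10 most abundant miRNAs of the 12 libraries, bta-miR-148a (-0.38, adjusted p = 0.206), bta-miR-27b (0.11, adjusted p = 0.438) and bta-miR-142-5p did not pass. The medians of the miR-15 and miR-16, miR-23, miR-424, miR-378, miR-130, DLK1-DIO3 and striated muscle lists changed sign under some of the scalings.

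Ratios between miRNAs of one library do not depend on how the library was scaled. Of 27 hairpins with both arms listed, the ratio of the arms did not overlap between the tissues in 6. Levels of single miRNAs did not overlap in 16.3% of all 331. The ratio of bta-miR-21-3p to bta-miR-21-5p was 0.00173 to 0.00267 in the duodenum and 0.00652 to 0.00931 in the jejunum. That of bta-miR-423-3p to bta-miR-423-5p was 0.733 to 0.919 and 1.64 to 2.26, so that the more abundant arm differed between the tissues. bta-miR-425-3p went the other way, at 0.0740 to 0.0965 and 0.0305 to 0.0495 of its partner arm. The other 3 hairpins, named after their values were seen, were those of bta-miR-17, bta-miR-22 and bta-miR-345, in each of which the 3p arm was higher relative to the 5p arm in the jejunum. Over hairpins that lie within 10 kb of each other in the RefSeq annotation of the assembly ARS-UCD2.0, to which 329 of the 331 names were matched, 47 neighbourhoods held at least 2 miRNAs and 6 of them held calls in each direction. Of these 6, 2 share bta-miR-92a and bta-miR-19b, which have a hairpin in each, so they are not independent. bta-miR-92a was 3.32 to 4.47 times as abundant as bta-miR-19b in the duodenum and 15.2 to 19.2 times in the jejunum. Reads of either may come from both neighbourhoods, so this ratio may mix transcripts. bta-let-7e was at 0.153 to 0.271 of bta-miR-99b in the duodenum and at 0.655 to 0.763 in the jejunum. The ratio of bta-miR-143 to bta-miR-145 was 63.2 to 84.0 and 118 to 164. In the 24 duodenum and jejunum libraries of the other diets these 3 ratios reached at most 7.30, 0.297 and 111, below all 6 corn stover jejunum libraries.

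**Figure D4:**
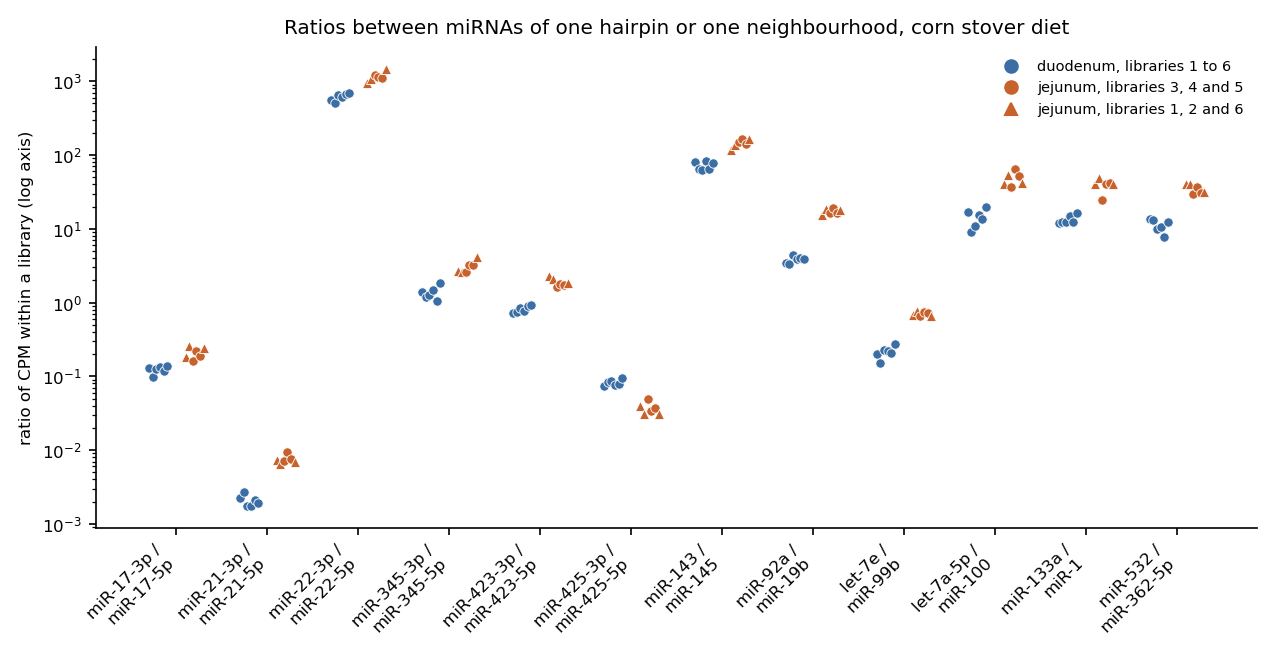
Each point is the ratio of the CPM of 2 miRNAs within 1 corn stover library, on a log axis, for 6 hairpins (3p over 5p arm) and 6 combinations of neighbouring miRNAs, chosen after their values were seen. In each of the 12 ratios the 6 jejunum libraries lie apart from the 6 duodenum libraries, and except in the bta-miR-423 hairpin jejunum libraries 1, 2 and 6 (triangles) overlap with the other 3. bta-let-7a-5p, bta-miR-92a, bta-miR-19b, bta-miR-133a and bta-miR-1 each have more than 1 hairpin, so their ratios may mix transcripts.

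The second question was whether the difference between the tissues on corn stover is that seen under the other diets. In a fit of the 36 duodenum and jejunum libraries of the 3 diets, 4 of 331 miRNAs (1.21%) passed between the tissues on rice straw and 31 (9.37%) on alfalfa hay. The difference on corn stover was tested against the mean of the differences on the other 2 diets, and 71 miRNAs passed (21.5%), 30 higher (9.06%) and 41 lower (12.4%) on corn stover. Both tests share the corn stover libraries. The preparation of the 6 corn stover jejunum libraries cannot be told apart from their tissue and diet. A call in this test, named a call between diets below, therefore does not show an effect of diet. Without jejunum libraries 1, 2 and 6, 38 passed (11.5%).

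The difference of bta-miR-92a was -0.24 on rice straw and 0.08 on alfalfa hay, and 1.77 ± 0.16 larger on corn stover than their mean (adjusted p = 8.61e-11). The 24 libraries of the other diets held 3098 to 5547 CPM of it, a range that overlaps that of the corn stover duodenum and lies below the whole corn stover jejunum. bta-miR-1271 had -0.04 and 0.25 there and -2.41 ± 0.27 in the test between diets (adjusted p = 1.56e-08), with at least 29.9 CPM in every library of the other diets. The corn stover differences of bta-miR-423-3p (1.91, adjusted p = 9.6e-07), bta-miR-345-3p (1.06, adjusted p = 4.4e-06), bta-miR-21-3p (1.34, adjusted p = 1.22e-05) and bta-miR-99b (-1.43, adjusted p = 3.44e-05) also departed from the mean of the other diets. All of these kept an adjusted p of 0.00191 or less without jejunum libraries 1, 2 and 6. That of bta-miR-143 departed by 0.64 (adjusted p = 0.00801), with differences of 0.13 on rice straw and 0.22 on alfalfa hay.

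The 3 intestinal epithelium miRNAs and 2 of the 3 HOX cluster miRNAs did not pass that test. bta-miR-215 had differences of -0.88 on rice straw and -0.96 on alfalfa hay, and its corn stover difference departed from their mean by -0.09 (adjusted p = 0.89). bta-miR-192 departed by -0.39 (adjusted p = 0.103). bta-miR-10a had differences of 1.52 and 1.45 under these diets (test between diets 0.61, adjusted p = 0.426) and bta-miR-10b 0.86 and 1.25 (0.06, adjusted p = 0.917). Without jejunum libraries 1, 2 and 6 the departures turned to -0.22 for bta-miR-10a and -0.79 for bta-miR-10b (adjusted p = 0.846 and 0.178). bta-miR-223 was higher under both, by 1.41 and 1.01 (test between diets -0.17, adjusted p = 0.757). bta-miR-196a had 1.70 and 1.68 under the other diets and departed by 2.85 (adjusted p = 0.00716), which did not pass without jejunum libraries 1, 2 and 6 (adjusted p = 0.392). bta-miR-31 passed in this test (-2.12, adjusted p = 0.0372) and was at 0.19 without these libraries (adjusted p = 0.775). Of the 5 miR-200 family members only bta-miR-141 passed (-0.81, adjusted p = 0.00716).

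**Figure D5:**
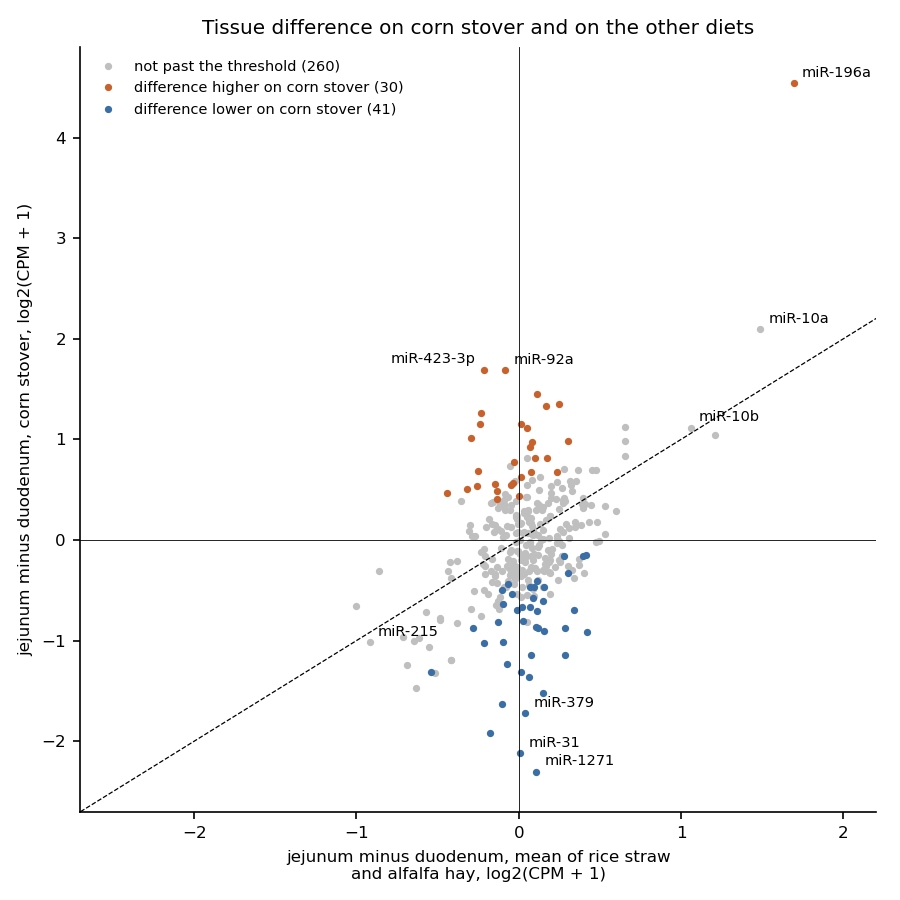
Each point is 1 of 331 miRNAs, with the mean jejunum minus duodenum difference on rice straw and alfalfa hay across and that on corn stover upward, both in log2(CPM + 1), and a dashed line where they are equal. bta-miR-10b and bta-miR-215 lie near the line, while bta-miR-92a and bta-miR-423-3p lie above and bta-miR-1271, bta-miR-379 and bta-miR-31 below it, at other-diet differences near 0.

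The 7 miRNAs listed in the duodenum and not in the jejunum were scarce, with mean levels of 0.81 to 2.16 CPM, and so were 5 of the 6 listed in the jejunum and not in the duodenum. The other, bta-miR-2885, named after its values were seen, had 3.14 to 21.1 CPM over the 6 jejunum libraries. These 13 were not tested, since the tissue that does not list them has no value.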

How the data were processed

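Small RNA libraries of 6 duodenum and 6 jejunum samples on corn stover were analysed, with the 24 libraries of both tissues on the other diets for the second test. Per the study's methods, reads that passed CASAVA 1.8 (per the submitters' processing notes) were trimmed and aligned to bovine miRNA precursors with sRNAbench, allowing mismatches and multiple mappings, so miRNAs of nearly the same sequence (such as those of the miR-10, miR-192, miR-99, miR-92, miR-29, miR-199, let-7, miR-2284 and miR-2285 families) may have shared reads, and how each read was assigned among them is uncertain. The authors divided the reads of each miRNA by all reads mapped to annotated miRNAs, which gives the deposited CPM. The deposited CPM of a tissue cover the same miRNAs in all its libraries. In each library 100% of the values were whole multiples of one step (tolerance 0.05 of a step), taken as 1 read, which gave the mapped reads. No 2 of the libraries were identical. The floors of 3 reads cover counting error only.

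Groups came from the labels of tissue and diet. limma 3.58.1 in R 4.3.3 (lmFit, eBayes with trend) was fitted to log2(CPM + 1), with no other scaling, over all 331 miRNAs, two-sided, with p-values adjusted by Benjamini-Hochberg and a cutoff of 0.05, for jejunum minus duodenum in 12 libraries and for the contrast between diets in 36. A difference on the log2(CPM + 1) scale understates the change of scarce miRNAs. Summed shares were compared by exact permutation. Alternatives were other scalings, pseudocounts of 0.1 and 5 CPM, a minimum mean of 10 CPM, a replicate block, all 36 libraries in the fit, and leaving out libraries. The fits were tested on simulated data. Tables were handled with Python 3.11.15, numpy 2.4.6 and pandas 2.3.3 and drawn with matplotlib 3.10.9.

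The miRNAs named with values are the 10 most abundant, the 12 largest rises and 12 largest falls among those called with a mean of at least 10 CPM in the higher tissue, the 5 largest in each direction in the test between diets with a mean of at least 10 CPM, and up to 4 members of each of 30 lists, the most abundant first. Others that are named beside a count or a ratio were chosen after their values were seen. The libraries, lists and tests were chosen with earlier results of these data known.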

Additional observations from a re-analysis of the deposited data

Results flagged for a closer look

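The tissue difference on corn stover departed from the mean of those on rice straw and alfalfa hay in 71 miRNAs by limma's contrast between diets. Among the named miRNAs the departures below 0 on the log2 scale were -2.41 for bta-miR-1271, -2.12 for bta-miR-31, -1.76 for bta-miR-379, -1.67 for bta-miR-146b, -1.52 for bta-miR-96, -1.43 for bta-miR-99b, -1.42 for bta-miR-99a-5p, -1.22 for bta-miR-100, -1.16 for bta-miR-425-3p, -0.78 for bta-miR-153 and -0.53 for bta-miR-26a. Those above 0 were 0.64 for bta-miR-143, 1.06 for bta-miR-345-3p, 1.14 for bta-miR-1307, 1.16 for bta-miR-504, 1.34 for bta-miR-21-3p, 1.40 for bta-miR-2487, 1.49 for bta-miR-2887, 1.77 for bta-miR-92a, 1.91 for bta-miR-423-3p and 2.85 for bta-miR-196a.

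In 20 of the 238 groups of 6 libraries examined for the named miRNAs (8.4%), the highest or lowest library lay far from the other 5 by Dixon's criterion. Chance gives such a gap in about 1 in 20 groups.

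Jejunum library 4 was highest in 3 red blood cell miRNAs, with 559 CPM of bta-miR-451, 1428 CPM of bta-miR-486 and 43.02 CPM of bta-miR-144, against at most 160.3, 531 and 10.5 CPM in the other 5. Libraries 5 of both tissues were highest in the ciliated cell miRNAs of the miR-34 family, with 7.308 CPM (duodenum) and 6.526 CPM (jejunum) of bta-miR-34b and 50.75 and 42.14 CPM of bta-miR-34c, against at most 16.81 CPM of the latter elsewhere. Duodenum library 6 was highest in the lymphocyte miRNA bta-miR-150 at 3897 CPM (others up to 1820 CPM) and in bta-miR-142-3p at 2654 CPM (others up to 1599 CPM), and also in bta-miR-2285f at 192 CPM and bta-miR-2285k at 232 CPM.

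Jejunum library 2 was lowest in bta-miR-125b at 605.4 CPM and highest in bta-miR-200c at 864.2 CPM and bta-miR-378b at 69.65 CPM. Jejunum library 3 was highest in bta-miR-146b at 557.3 CPM and bta-miR-7 at 52.04 CPM. In the duodenum, library 2 was highest in bta-miR-1271 at 75.14 CPM, library 3 in bta-miR-2887 at 16.15 CPM and library 4 in bta-miR-199a-3p at 4735 CPM, and library 4 was lowest in bta-miR-31 at 210.2 CPM.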

How the results depend on the processing

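Leaving out jejunum libraries 1, 2 and 6, chosen after seeing the data, left 69 calls between the tissues, 31 of them lower, and 38 calls between diets, 18 of them lower, and turned bta-miR-31 between diets to 0.19. Without bta-miR-192 in the total, 35 were higher and 93 lower between the tissues and 75 lower between diets. Without bta-miR-143 and bta-miR-145 these were 28 lower between the tissues and 24 between diets. Upper-quartile scaling gave 109 calls between diets, 69 of them lower, and trimmed-mean scaling 51 higher. The causes were not tested. Leaving out each library in turn gave 102 to 120 calls between the tissues (47 to 60 higher, 51 to 68 lower, the fewest in all without jejunum library 1) and 57 to 86 between diets (22 to 35 higher, 33 to 53 lower, the fewest in all without jejunum library 2), a smooth muscle and stroma difference of 9.771 to 12.07 percentage points and an intestinal epithelium difference of -14.6 to -11.64. Pseudocounts of 0.1 and 5 CPM gave 116 and 121 calls, a mean of at least 10 CPM 103, and all 36 libraries in one fit 122.

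Same-numbered libraries were not shown to be paired. Their deviations from the group means correlated at -0.2 to 0.35, above 0.1 for 4 of 6 numbers, and 5 of 12 samples correlated best with their own number. With the replicate block, 128 miRNAs were called between the tissues and 83 between diets, and of the named calls only that of bta-miR-19b between diets was lost.

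Of 56 named miRNAs called between the tissues, 36 kept the call under the scalings, pseudocounts, filter, block, shared fit and single libraries left out, 20 lost it under some scaling and 9 with some library left out, while 21 lost it without the 3 jejunum libraries. None of the 56 changed sign under any of these, though the scalings shift all differences nearly alike and could hardly change a sign. Of 39 named miRNAs called between diets, 25 kept the call under the former settings, 12 lost it under some scaling and 8 with some library left out, while without the 3 jejunum libraries 16 lost it with the same direction and 1 (bta-miR-31) changed sign. The planned tests with edgeR and DESeq2 on recovered reads were not run. At 3 reads, 0.3 to 0.609 CPM, lower levels could not be resolved.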

Other observations

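The 4 miR-34 and miR-449 family miRNAs, known from ciliated cells, summed to 0.00987% to 0.0210% of mapped reads in the duodenum and 0.00854% to 0.0176% in the jejunum. The stratified epithelium miRNA bta-miR-205, which is abundant in rumen epithelium, was listed in the duodenum at 0.58 to 3.90 CPM and not in the jejunum.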
